A study of Mus musculus with 16 samples.

Results

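The control translatome of intrinsically photosensitive retinal ganglion cells (ipRGCs) was read in 2 separate experiments, and the 6 libraries that hold it are described here. All 6 came from retinas of mice at postnatal day 60 with the labelled genotype Opn4-Cre; Rpl22-HA, on a mixed B6/129 background, and were chosen by that genotype and by being HA immunoprecipitates (IPs), 6 of the 16 libraries of the series. The second experiment gave 4 Brn3b WT IPs, littermate controls of a Brn3b conditional knockout, of which replicates 1, 2 and 4 are labelled male and replicate 3 female. The first experiment gave 2 Rpl22HA IPs, labelled as pooled male and female mice, beside their inputs and beside IPs and inputs of Opn4-Cre mice without the HA tag (ctrl). Both experiments used the same antibody, lysis and Smart-seq3 library protocol, as far as the methods state, so the comparison asks which ribosome-bound genes are abundant, how well the 2 experiments agree on them, and what sets the experiments apart. Experiment, sex make-up, the labelled pooling of mice and any difference between the sequencing runs cannot be told apart.

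In this design the ribosomal protein RPL22 carries an HA tag in cells that have expressed Cre from the melanopsin gene Opn4, and an HA antibody recovers their ribosomes with the bound mRNA. ipRGCs are the ganglion cells that respond to light through their own melanopsin, signalling through a Gq protein, phospholipase C and TRPC channels. They set circadian timing and the pupil reflex and contribute to contrast vision. The methods state that a small group of cones also carries the tag. RNA of untagged cells can adhere to the beads, which the untagged ctrl IPs measure.

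Total counts over all transcripts were 13457045, 12994498, 18772081 and 14069977 in Brn3b WT IPs 1 to 4, and 12588592 and 13573350 in the Rpl22HA IPs. Each gene was read at 1 transcript, the one with the highest mean count over the 6 libraries, and these transcripts held between 47.9% and 49.9% of the counts. Levels are given as CPM, the count scaled to the library's total over those transcripts after TMM normalization, and levels of different genes are compared only per kb of transcript. Fold changes run from Brn3b WT IPs over Rpl22HA IPs on the log2 scale, with the standard error and the adjusted p of edgeR's quasi-likelihood test, so a positive value means higher in the second experiment.

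The label was checked against the genes that define ipRGCs. Opn4, which encodes melanopsin (chr14:34590618-34599958, minus strand, mm10), had 95.4, 71.8, 82.0 and 112.0 CPM in the Brn3b WT IPs, against 70.4 and 70.5 CPM in the Rpl22HA IPs. Scaled over all 16 libraries, Opn4 had 2.85 and 11.9 CPM in the ctrl IPs and 1.81 and 3.84 CPM in the ctrl inputs, so every tagged IP lay above every untagged library. The lowest Brn3b WT IP exceeded the highest Rpl22HA IP by little, and the fold change of Opn4, 0.36 ± 0.20 (SE), did not pass the test (adjusted p = 0.60). Eomes, the T-box factor that ipRGCs keep into adulthood, had 149.3, 124.7, 117.6 and 140.1 CPM in the Brn3b WT IPs, against 112.7 and 99.04 CPM in the Rpl22HA IPs. The 16 pan-RGC markers together had 9084 to 12020 CPM in the Brn3b WT IPs and 10060 and 9185 CPM in the Rpl22HA IPs. On the scale of all 16 libraries the same sum was 1790 and 1697 CPM in the Rpl22HA inputs and 1213 and 1429 CPM in the ctrl IPs. Rod RNA was still present: the 13 rod markers summed to 17730 to 25100 CPM in the Brn3b WT IPs and to 33170 and 37380 CPM in the Rpl22HA IPs, against 137100 and 120500 CPM in the Rpl22HA inputs.

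Per kb of transcript, the highest levels in both experiments belonged to 3 features of one ribosomal RNA locus. Rn18s-rs5, AY036118 and Gm42418 overlap one another on chromosome 17, on opposite strands, and cannot be counted as separate genes. They took 9.58%, 7.99%, 9.06% and 6.32% of the counts in the Brn3b WT IPs, against 6.72% and 5.45% in the Rpl22HA IPs. The mitochondrial transcripts mt-Nd1 and mt-Co1, of respiratory complexes I and IV, also stood among the 25 most abundant. Mitochondrial ribosomes carry no RPL22. Genes of the mitochondrial genome took 0.803% to 1.36% of the counts in the Brn3b WT IPs and 1.15% and 1.85% in the Rpl22HA IPs.

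**Figure D1:**
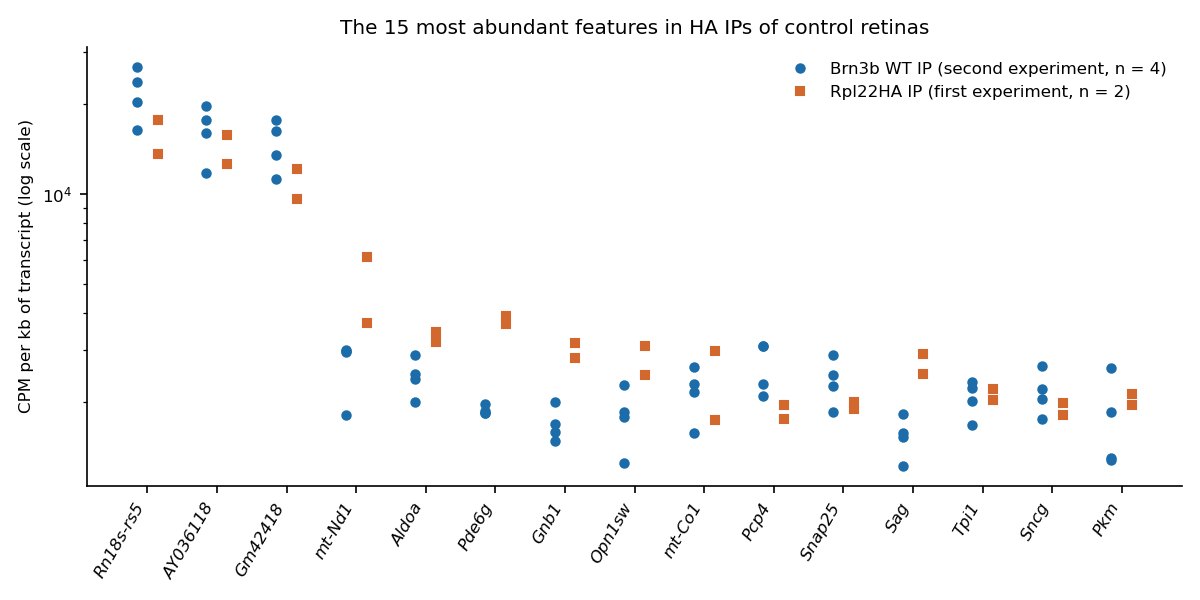
Level of the 15 most abundant features in each library, as CPM per kb of transcript on a log axis, ordered by the mean of both experiments. Blue circles are the 4 Brn3b WT IPs and orange squares the 2 Rpl22HA IPs. Features with all 4 circles below both squares include the photoreceptor genes Pde6g, Gnb1, Sag and Opn1sw and the glycolysis gene Aldoa.

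Photoreceptor genes and genes of energy metabolism were among the most abundant mRNAs. Of the rod list, 6 of 13 genes were in the top 100 of both experiments, among them Pde6g, Gnb1, Sag, Gnat1 and Gngt1, and of the cone list 5 of 14 were (Opn1sw, Opn1mw, Gnat2, Arr3 and Gnb3). Opn1sw, the short-wavelength cone opsin, ranked 13 in the Brn3b WT IPs and 8 in the Rpl22HA IPs, with 1790 and 2790 CPM per kb. Glycolysis gave 7 of 17 genes to both lists. Aldoa, the aldolase of muscle and brain, had 4340, 3021, 3605 and 3763 CPM in the Brn3b WT IPs, against 5190 and 4831 CPM in the Rpl22HA IPs, and ranked 6 in each. Nuclear genes of oxidative phosphorylation gave 9 of 83, led by Cox4i1 and Atp5b. Of 23 genes of synaptic vesicles and release 2 were in the top 100 of both experiments. One of them, Snap25, a SNARE protein of synaptic vesicle fusion, ranked 7 in the Brn3b WT IPs and 15 in the Rpl22HA IPs. Sncg, the gamma-synuclein that marks ganglion cells, had 1751, 1496, 1889 and 2260 CPM in the Brn3b WT IPs, against 1695 and 1539 CPM in the Rpl22HA IPs, and ranked 8 in the Brn3b WT IPs and 16 in the Rpl22HA IPs. Sncg, Nefl and Thy1 were the pan-RGC markers in both top 100 lists.

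No ipRGC marker reached the top 100. Opn4 ranked 1869 in the Brn3b WT IPs and 2414 in the Rpl22HA IPs, with 43.5 and 34.0 CPM per kb. Eomes ranked 2145 in the Brn3b WT IPs and 2717 in the Rpl22HA IPs. Spp1, which encodes osteopontin and marks alpha-type ganglion cells, was the most abundant of the subtype markers, with 629.9, 723.1, 978.1 and 1016 CPM in the Brn3b WT IPs, against 949.3 and 909.8 CPM in the Rpl22HA IPs, and ranked 81 and 75. Pou4f2, which encodes BRN3B, had 74.3, 93.0, 111.0 and 123.1 CPM in the Brn3b WT IPs, against 75.7 and 83.5 CPM in the Rpl22HA IPs, values that overlap. Tbx20 and Adcyap1, a T-box factor and the PACAP precursor of ipRGCs, ranked 6614 and 8784 in the Brn3b WT IPs, and 7325 and 9426 in the Rpl22HA IPs.

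The 2 experiments shared 6 of their 10 most abundant features, 20 of 25, 42 of 50, 90 of 100, 448 of 500 and 931 of 1000. Without division by length 82 of 100 were shared. Among the top 10, Pcp4, Snap25, Sncg and Tpi1 stood there in the Brn3b WT IPs alone, and Pde6g, Opn1sw, Gnb1 and Sag, 4 photoreceptor genes, in the Rpl22HA IPs alone. Pcp4, a small calmodulin-binding protein, ranked 5 in the Brn3b WT IPs and 17 in the Rpl22HA IPs, with 2650 and 1860 CPM per kb. In the top 25, Unc119 and Gnat1, both of photoreceptor transducin and its trafficking, and Guca1a, a guanylate cyclase activator, were listed in the Rpl22HA IPs alone and ranked 30, 56 and 54 in the Brn3b WT IPs. Of the 20 genes in the top 100 of 1 experiment alone, all but Gm37376 ranked at 228 or better in the other. Gm37376 lies on the strand opposite to Malat1 and ranked 100 in the Brn3b WT IPs and 458 in the Rpl22HA IPs.

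Over the 14186 genes tested, Spearman's rho between the mean log2(CPM + 1) of the Brn3b WT IPs and that of the Rpl22HA IPs was 0.9859, and Pearson's r 0.9843. Both are across genes, which are not independent replicates. Between single libraries rho was 0.9875 for the pair of Rpl22HA IPs, 0.9627 to 0.9782 for the 6 pairs of Brn3b WT IPs, and 0.9648 to 0.9765 for the 8 pairs that cross the experiments. Pairs of libraries that cross the experiments differed by a median of 1.22-fold per gene, pairs of Brn3b WT IPs by 1.25-fold and the Rpl22HA IPs by 1.14-fold. The pairs that crossed the experiments thus lay within the range of those among the Brn3b WT IPs. edgeR's common biological coefficient of variation was 0.235 over the Brn3b WT IPs and 0.122 over the Rpl22HA IPs. The Rpl22HA IPs are labelled as pooled mice, and the part of pooling in their smaller spread was not tested.

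Brn3b WT replicate 1 stood apart from its own group. It correlated more closely with both Rpl22HA IPs (rho = 0.9765 and 0.9748) than with Brn3b WT replicates 2, 3 and 4 (0.9627, 0.9682 and 0.9689). On the first principal component, which held 34.4% of the variance, Brn3b WT replicates 1 to 4 lay at 15.03, −33.8, −26.1 and −1.95, and the Rpl22HA IPs at 28.8 and 17.9. On the second component (21.1%) replicates 1 and 4 lay furthest out on opposite sides, at 32.83 and −27.35. The libraries also differed in their profile over transcript GC content, whose part in these components was not tested. In the fifth of genes with the highest GC, Brn3b WT replicate 1 lay at a median of 0.20 above the mean of the 6 libraries (log2), and replicates 2, 3 and 4 at −0.15, −0.09 and −0.09. In the fifth with the lowest GC the values were −0.21 for replicate 1, against 0.21, 0.10 and 0.07 for the other Brn3b WT IPs. Rpl22HA IP 1 had a slope of the same sign as Brn3b WT replicate 1, from −0.11 at low GC to 0.12 at high GC, and Rpl22HA IP 2 was nearly flat, at −0.03 and 0.02. Between the experiments the median fold change was 0.15 in the fifth with the lowest GC and −0.09 in that with the highest. Across 5 equal groups by transcript length it ran from −0.03 in the shortest to 0.10 in the longest. The part of GC in the fold changes of single genes was not tested beyond a fit with GC offsets, whose counts stand with the calls.

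**Figure D2:**
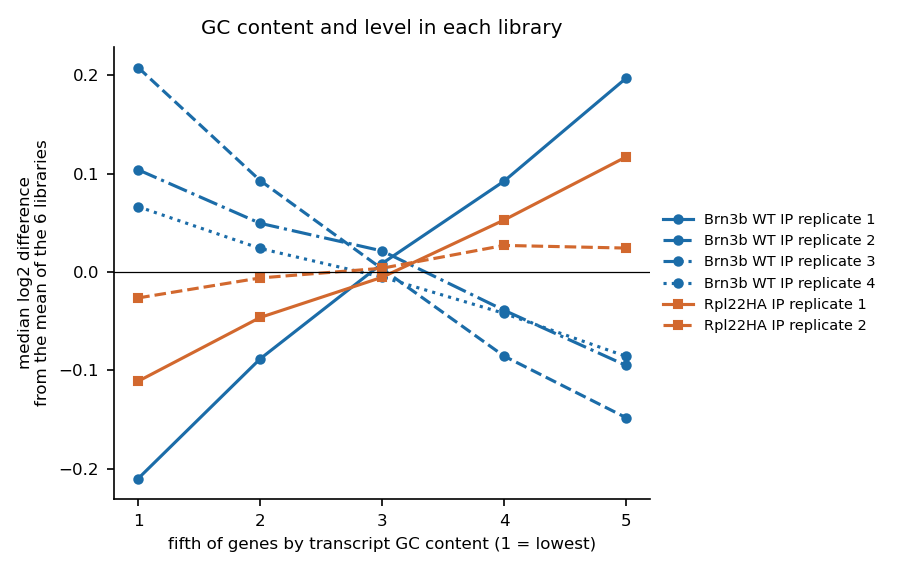
Median log2 difference of each library from the mean of the 6, in 5 equal groups of genes by transcript GC content. Blue lines are Brn3b WT IPs and orange lines Rpl22HA IPs, and Brn3b WT replicate 1 (solid blue) rises by 0.41 from the lowest to the highest group, where Brn3b WT replicate 2 falls by 0.36.

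Few genes differed by the test. At an adjusted p under 0.05, 3 genes were higher in the Brn3b WT IPs (0.0211% of the genes tested) and 14 were lower (0.0987%). At an unadjusted p under 0.05, 744 were higher and 650 lower. In 2832 genes (20% of those tested) the libraries of the experiments did not overlap, higher in the second in 9.62% and lower in 10.3%. A missing call does not show that levels were alike, so alikeness was counted by interval. The 95% interval of the fold change lay inside 2-fold in 9371 genes (66.1%), and in 8733 of the 10150 genes with at least 10 CPM in either experiment (86.0%). The median size of the fold change was 0.22 (log2) and 13519 genes had an estimate inside 2-fold. The interval reached 0.53 (log2) to each side of the estimate in the median gene.

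The number of calls depended on single libraries. Without Brn3b WT replicate 1, 62 genes were higher and 123 lower. Without Brn3b WT replicate 4 the counts were 10 and 15. Without Rpl22HA IP 1 they were 1 and 5, and without Rpl22HA IP 2 both were 0, with 481 and 341 genes at an unadjusted p under 0.05. DESeq2 called 71 higher and 87 lower, and edgeR with GC offsets 24 and 42, both including the 3 higher genes and 13 of the 14 lower ones. Higher genes were thus 36.4% of the calls with GC offsets and 17.6% without them. With the Brn3b WT males alone, without replicate 3, the counts were 3 and 16. None of the 17 genes changed its sign in any of the 14 alternatives.

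**Figure D3:**
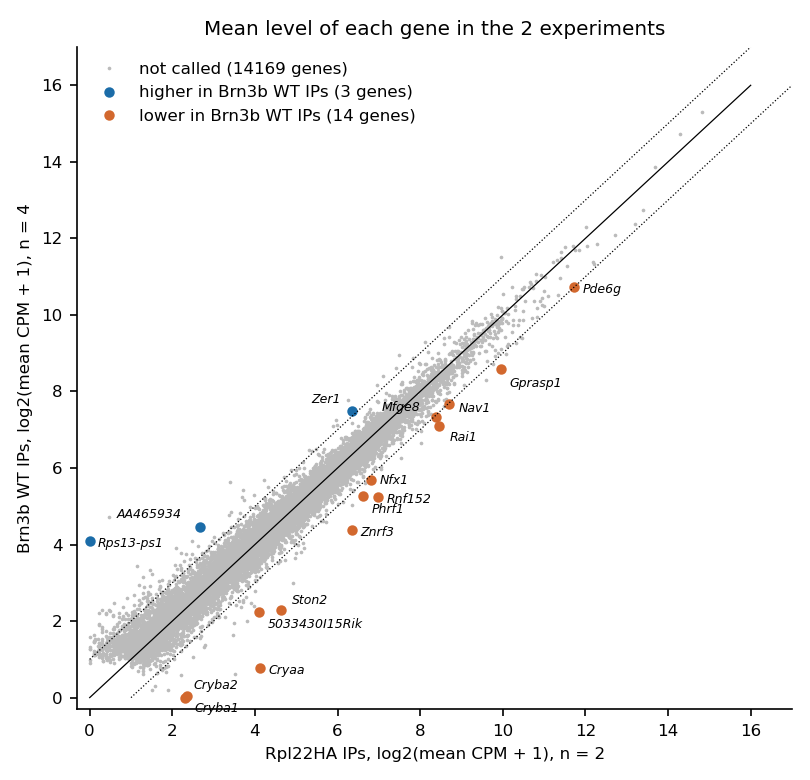
Mean level of each of the 14186 genes in the Brn3b WT IPs (vertical, n = 4) and in the Rpl22HA IPs (horizontal, n = 2), as log2(mean CPM + 1). The solid line marks equal levels and the dotted lines a 2-fold difference, and the 17 genes past the threshold are named, 3 above and 14 below the diagonal.

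The 3 lower genes with the largest fold changes were lens crystallins, structural proteins of the lens fibre. Cryaa (alpha-A crystallin) had 0, 0.152, 1.61 and 1.11 CPM in the Brn3b WT IPs, against 16.3 and 16.5 CPM in the Rpl22HA IPs (−4.36 ± 0.59, adjusted p = 0.012). Cryba2 (a beta-A crystallin) had no count in any Brn3b WT IP and 49 counts over both Rpl22HA IPs, which makes it at least 38.9-fold lower in the second experiment against a floor of 3 counts over the group. Cryba1, another beta-A crystallin, had 1 count in the Brn3b WT IPs and 50 in the Rpl22HA IPs, a ratio of 0.00839 with a counting interval of 0.000208 to 0.0489. Of the 12 crystallins on the list 8 passed the filter on low counts, and those that did so through the Rpl22HA IPs alone had to differ. Cryaa, Cryba1 and Cryba2 passed through the Rpl22HA IPs, where they are high. Their adjusted p-values in edgeR's test, and their part in the list sum, are therefore no independent evidence of a difference. Cryab (alpha-B crystallin), which is also made in the retina, had 3.28, 5.79, 3.75 and 6.94 CPM in the Brn3b WT IPs, against 5.27 and 6.16 CPM in the Rpl22HA IPs, and the groups overlapped. Summed over the list, lens crystallins had 5.47, 6.40, 8.14 and 10.1 CPM in the Brn3b WT IPs, against 52.7 and 43.7 CPM in the Rpl22HA IPs, and on the scale of 16 libraries 350.2 and 325.9 CPM in the Rpl22HA inputs. The sum varied between the ctrl libraries of the first experiment, with 449.8 and 73.3 CPM in the ctrl inputs and 114.9 and 24.2 CPM in the ctrl IPs. The list also summed to 40.9, 634.4, 339.9 and 47.6 CPM in the Brn3b cKO IPs of the same second experiment, which differ in genotype. The low level was thus seen in the Brn3b WT IPs and not in every library of that experiment.

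A group of 9 of the 14 lower genes was abundant in IPs of untagged retinas. All 9 lay in the top 5% of genes by the ratio of the untagged ctrl IPs to the untagged ctrl inputs. These libraries enter neither side of the comparison, but they belong to the first experiment, as the Rpl22HA IPs do. The second experiment has no untagged IP, so its own untagged level is not known. The 9 genes had 74.8 to 6522 CPM in the ctrl IPs and 3.02 to 149.0 CPM in the ctrl inputs. Znrf3, an E3 ubiquitin ligase that removes Wnt receptors from the cell surface, had 17.6, 25.4, 20.6 and 16.2 CPM in the Brn3b WT IPs, against 73.8 and 86.1 CPM in the Rpl22HA IPs (−2.0 ± 0.20, adjusted p = 0.0020). In the ctrl IPs it had 386.1 and 292.3 CPM, and in the ctrl inputs 43.4 and 22.2 CPM. Rnf152, a lysosomal ubiquitin ligase, had 33.4, 46.6, 38.8 and 28.3 CPM in the Brn3b WT IPs, against 117.0 and 133.4 CPM in the Rpl22HA IPs (−1.77 ± 0.20, adjusted p = 0.0020). Gprasp1, a sorting protein of G-protein-coupled receptors, had 409.4, 410.9, 333.8 and 389.0 CPM in the Brn3b WT IPs, against 700.8 and 1280 CPM in the Rpl22HA IPs, and 4040 and 6522 CPM in the ctrl IPs. Nav1, a microtubule-associated neuron navigator, had 203.3, 226.0, 210.8 and 178.5 CPM in the Brn3b WT IPs, against 381.2 and 442.2 CPM in the Rpl22HA IPs, and 1952 and 2071 CPM in the ctrl IPs.

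In all 9, every Brn3b WT IP lay below both Rpl22HA IPs. The others were Ston2, an endocytic adaptor (−2.63), 5033430I15Rik (−2.09), Phrf1, a PHD and RING finger protein (−1.38), Rai1, a chromatin-bound transcriptional regulator (−1.36), and Nfx1, a zinc finger repressor (−1.13). Exons of Gprasp1 overlap Armcx5 and Bhlhb9 on the same strand, and Nav1, Phrf1, Rai1 and Rnf152 overlap Gm4793, Irf7, Srebf1 and Gm17634 on the other strand, with which reads may be shared since counting by strand is not stated. The pattern did not extend to all genes recovered without the tag. The 710 genes of the top 5% had a median fold change of 0.11, against 0.03 over all genes. In the top 1%, 142 genes, the median was −0.20, 6 were called lower and none higher, and 61.3% had a negative fold change. From the 95th to the 99th percentile the median was 0.20, 3 genes were called lower, 1 higher (AA465934), and 35.6% were negative.

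**Figure D4:**
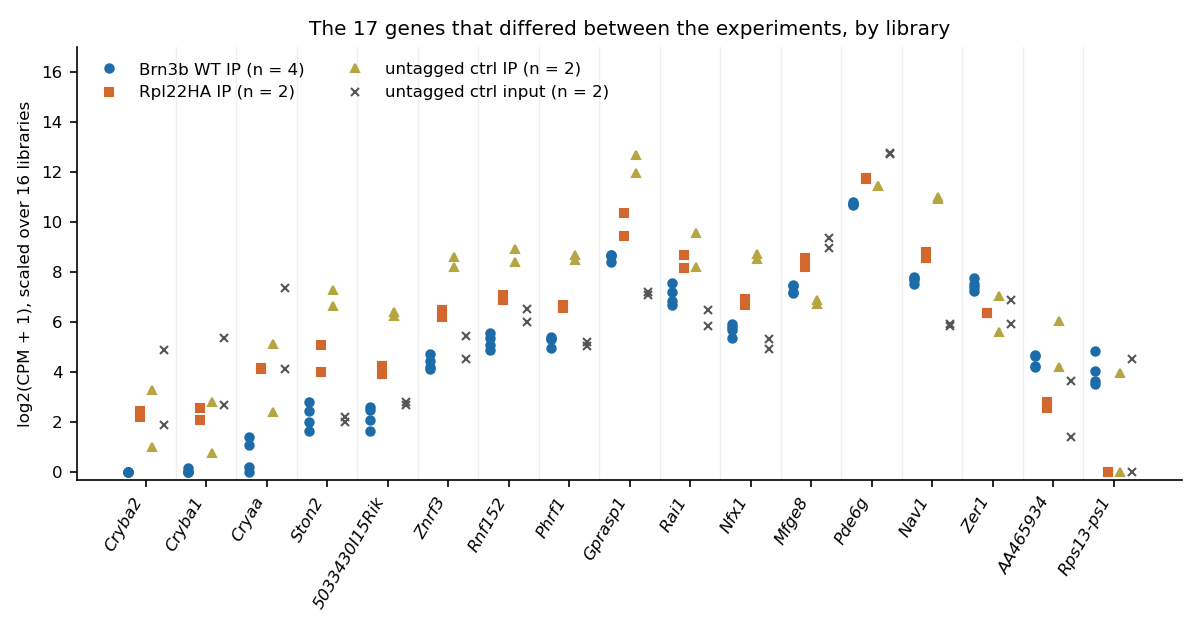
Level of the 17 called genes by library as log2(CPM + 1), with CPM scaled over all 16 libraries, ordered by fold change. Within each gene the columns are Brn3b WT IPs (circles, n = 4), Rpl22HA IPs (squares, n = 2), untagged ctrl IPs (triangles, n = 2) and untagged ctrl inputs (crosses, n = 2). In 8 of the 9 lower genes high in untagged IPs both triangles lie above every other point, Rai1 being the exception.

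The other lower genes were Pde6g and Mfge8. Pde6g, the inhibitory gamma subunit of the rod phosphodiesterase (chr11:120447626-120453500, minus strand), had 1770, 1662, 1660 and 1676 CPM in the Brn3b WT IPs, against 3511 and 3305 CPM in the Rpl22HA IPs (−1.01 ± 0.17, adjusted p = 0.034). It was the only called gene among the 25 most abundant. Mfge8, a secreted protein that bridges phosphatidylserine to phagocytes and that the pigment epithelium uses in taking up outer segments, had 180.7, 174.4, 144.1 and 139.5 CPM in the Brn3b WT IPs, against 378.6 and 284.8 CPM in the Rpl22HA IPs (−1.06 ± 0.18, adjusted p = 0.047). Both were lower in the untagged ctrl IPs than in the ctrl inputs, with 117.3 and 106.5 CPM of Mfge8 in the ctrl IPs and 502.1 and 656.2 CPM in the ctrl inputs.

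Of the 3 higher genes, Rps13-ps1 was counted in every Brn3b WT IP and in neither Rpl22HA IP. It is a processed pseudogene of Rps13, a protein of the small ribosomal subunit, on chromosome 8 (chr8:87047689-87048226, plus strand, 538 bases). Its transcript matched that of Rps13 over 522 bases with 2 differences and no gap (99.6% identity), and 88.7% of its 37-base windows were identical to Rps13, so most reads of one cannot be told from those of the other. The stretch that holds both differences is shown because reads elsewhere in the aligned bases cannot separate them, with the bases that differ from Rps13 in capitals (bases 382 to 487 of the transcript, GENCODE M21 on mm10).
Rps13-ps1: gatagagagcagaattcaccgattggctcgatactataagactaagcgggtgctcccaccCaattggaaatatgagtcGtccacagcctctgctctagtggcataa

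Rps13-ps1 had 15.8, 10.5, 11.2 and 27.2 CPM in the Brn3b WT IPs, 471 counts in all, and 0 counts in both Rpl22HA IPs, at least 65.9-fold higher in the second experiment against a floor of 3 counts over the group. It passed the filter on low counts through the Brn3b WT IPs alone, so its adjusted p of 0.0020 in edgeR's test is no independent evidence of a difference. The split did not follow the experiments in full. On the scale of 16 libraries ctrl replicate 2 had 14.9 CPM in the IP and 22.2 CPM in the input, and ctrl replicate 1 had 0 in both, while the Rpl22HA inputs had 0 and 0.246 CPM and the Brn3b cKO IPs 9.07 to 18.6 CPM. Rps13 itself had a mean of 43.8 CPM in the Brn3b WT IPs and 46.0 CPM in the Rpl22HA IPs, with a fold change of −0.07 ± 0.19. AA465934, whose function is not annotated in the tables used, had 24.5, 25.0, 17.5 and 17.2 CPM in the Brn3b WT IPs, against 4.93 and 5.85 CPM in the Rpl22HA IPs (1.96 ± 0.29, adjusted p = 0.020). Like the 9 lower genes above, it lay in the top 5% by untagged IP over input. On the scale of 16 libraries it had 65.5 and 17.5 CPM in the ctrl IPs and 11.7 and 1.65 CPM in the ctrl inputs. Zer1, a substrate receptor of a cullin ubiquitin ligase, had 216.4, 171.0, 177.4 and 146.3 CPM in the Brn3b WT IPs, against 82.5 and 79.9 CPM in the Rpl22HA IPs (1.13 ± 0.20, adjusted p = 0.047). The groups of both genes did not overlap.

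Most photoreceptor genes had lower levels in the Brn3b WT IPs, although a single member passed the test. Cones and rods turn light into a fall of cGMP through opsin, transducin and phosphodiesterase, with separate genes for each step in each type. In bulk IPs, fewer cells of a type and less RNA per cell cannot be told apart. All 14 cone markers had a negative fold change, and 0 of 14 were called, where 0.12% of all genes were. In 9 of 14 the experiments did not overlap, lower in the Brn3b WT IPs, as in 10.3% of all genes. The median of the 14 was −0.60, against 0.03 over all genes. Arr3, the cone arrestin that quenches the activated opsin, had 876.0, 581.7, 811.3 and 496.3 CPM in the Brn3b WT IPs, against 1621 and 1106 CPM in the Rpl22HA IPs (−0.98 ± 0.24, adjusted p = 0.13). Pde6c, the catalytic subunit of the cone phosphodiesterase, had 182.2, 192.2, 146.4 and 138.1 CPM in the Brn3b WT IPs, against 320.8 and 263.1 CPM in the Rpl22HA IPs. Opn1sw had 5496, 4293, 3008 and 4471 CPM in the Brn3b WT IPs, against 7468 and 5958 CPM in the Rpl22HA IPs. Gnat2, the cone transducin alpha subunit, had 1918, 1416, 1088 and 1151 CPM in the Brn3b WT IPs, against 2227 and 1756 CPM in the Rpl22HA IPs, and here the groups overlapped through Brn3b WT replicate 1.

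The 13 rod markers had 12 negative fold changes, 1 call (Pde6g) and a median of −0.42. In 7 the groups did not overlap, all lower in the Brn3b WT IPs, as in 10.3% of all genes. Gnat1, the rod transducin alpha subunit, had 1383, 2133, 1805 and 1628 CPM in the Brn3b WT IPs, against 3057 and 3946 CPM in the Rpl22HA IPs (−1.01 ± 0.20, adjusted p = 0.074). Sag, the rod arrestin, had 2619, 3146, 2713 and 2103 CPM in the Brn3b WT IPs, against 4994 and 4265 CPM in the Rpl22HA IPs. Gnb1, the beta subunit of rod transducin, which other cells also use, had 5314, 6307, 5007 and 4670 CPM in the Brn3b WT IPs, against 8832 and 9919 CPM in the Rpl22HA IPs.

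Summed over the list, cone markers had 11490 ± 2731 CPM in the Brn3b WT IPs (SD, n = 4) and 18090 ± 2781 CPM in the Rpl22HA IPs (SD, n = 2), a ratio of 0.635. Rod markers had 21170 ± 3025 CPM in the Brn3b WT IPs and 35280 ± 2976 CPM in the Rpl22HA IPs, a ratio of 0.600. The exact two-sided permutation p was 0.0667 for each, which is the smallest that 2 against 4 libraries allow. In the untagged ctrl IPs, which belong to the first experiment, the cone sum was 1355 and 1277 CPM and the rod sum 35670 and 32210 CPM. Scaled the same way, rod RNA in the 4 Brn3b WT IPs (18130 to 25130 CPM) lay below the untagged level and in the Rpl22HA IPs (33220 and 38200 CPM) near it, and cone RNA was above it in all 6 libraries. The Brn3b cKO IPs of the second experiment had cone sums of 16980 to 24450 CPM and rod sums of 22660 to 37290 CPM. They differ in genotype, and the paper reports fewer HA-labelled ganglion cells in cKO retinas, with no significant change in HA-labelled cone density. The cKO sums thus cannot say whether the low cone level belongs to the second experiment as a whole. Within the second experiment the 2 lists did not follow each other, since replicate 1 was highest for cones (15420 CPM) and replicate 2 for rods (25100 CPM).

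**Figure D5:**
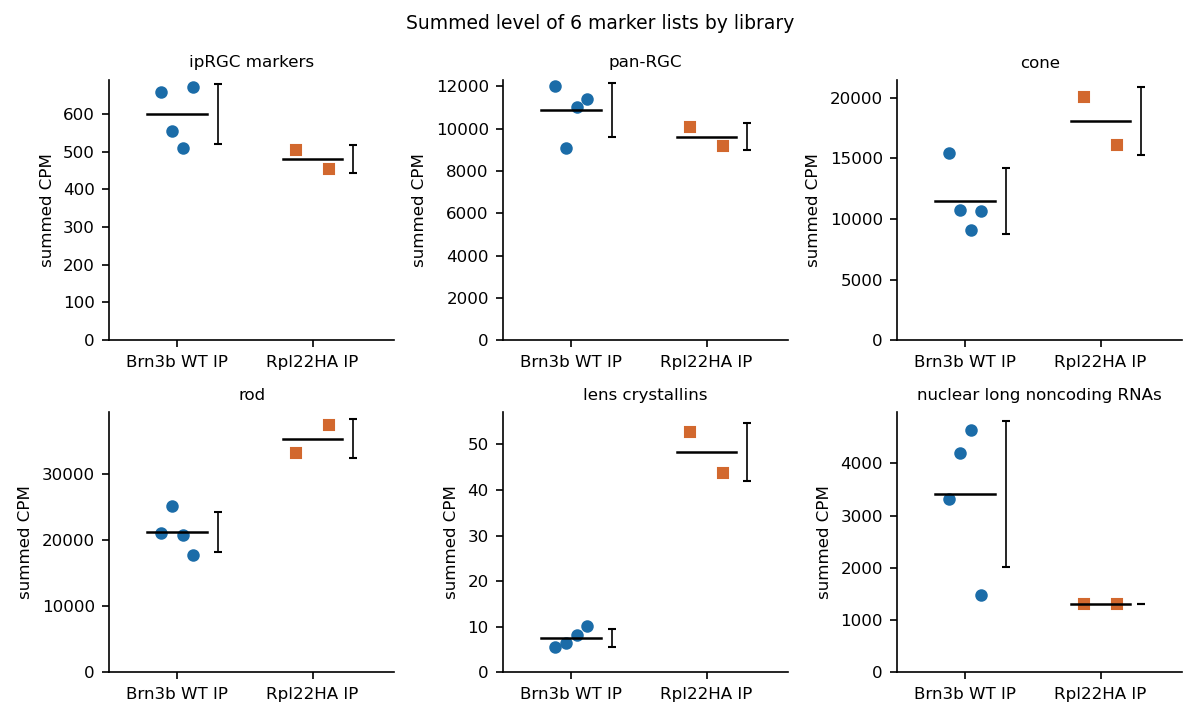
Summed CPM of 6 marker lists in each library, with Brn3b WT IPs (circles, n = 4) left of Rpl22HA IPs (squares, n = 2). Horizontal bars are means and whiskers SD, and the cone, rod and lens panels show all Brn3b WT IPs below both Rpl22HA IPs.

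Promoters of the photoreceptor genes were searched for TAATCC or GGATTA, the 2 strands of the core motif bound by CRX, the homeobox factor of photoreceptors. Promoters were taken from RefSeq (GRCm38.p6) as 300 bases around each start, and 9 of 13 rod and 10 of 14 cone genes were in the table. The motif stood in 4 of 9 rod promoters (44.4%), 2 of 17 cone promoters (11.8%), 1 of 8 pan-RGC promoters (12.5%) and 7.06% of all 32851 promoters. The 100 bases before the start are shown for 3 genes of transducin and arrestin whose promoter holds it, with the motif in capitals. Gnat2 is at chr3:108092966-108093065, Sag at chr1:87803580-87803679 and Gngt1, the gamma subunit of rod transducin, at chr6:3993908-3994007, all on the plus strand, and the motif starts 19, 87 and 44 bases before the start.
Gnat2: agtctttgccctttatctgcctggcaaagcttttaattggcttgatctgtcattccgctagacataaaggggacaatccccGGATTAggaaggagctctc
Sag: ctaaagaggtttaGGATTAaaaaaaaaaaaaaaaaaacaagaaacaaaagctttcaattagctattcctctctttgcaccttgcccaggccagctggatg
Gngt1: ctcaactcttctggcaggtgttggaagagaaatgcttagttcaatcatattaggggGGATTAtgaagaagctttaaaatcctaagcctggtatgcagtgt

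Ganglion cell genes lay about as close between the experiments as other genes with at least 10 CPM. Of the 16 pan-RGC markers none was called, where 0.12% of all genes were. In 14 the interval lay inside 2-fold, near the share of 86.0% over genes with at least 10 CPM, and the median fold change was 0.13. Slc17a6, the vesicular glutamate transporter VGLUT2, had 195.7, 250.3, 249.2 and 250.7 CPM in the Brn3b WT IPs, against 225.1 and 202.4 CPM in the Rpl22HA IPs. Nefl, the neurofilament light chain, had 4077, 3006, 3564 and 3619 CPM in the Brn3b WT IPs, against 3384 and 3218 CPM in the Rpl22HA IPs. The exceptions in size were Nrn1, the neurite growth protein neuritin, with 439.4, 494.0, 575.3 and 580.4 CPM in the Brn3b WT IPs, against 330.2 and 255.1 CPM in the Rpl22HA IPs (0.84, adjusted p = 0.12), and Stmn2, a tubulin-binding protein of axons, with 837.7, 837.3, 996.3 and 970.8 CPM in the Brn3b WT IPs, against 658.3 and 560.6 CPM in the Rpl22HA IPs (0.58, adjusted p = 0.29). In both the groups did not overlap.

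Of the 12 ipRGC markers 11 had a positive fold change, with a median of 0.37, and none was called, where 0.12% of all genes were. By interval 7 lay inside 2-fold, where 66.1% of all genes did. In 4 the groups did not overlap, 3 higher and 1 lower in the Brn3b WT IPs, beside 20% of all genes in either direction. Their sum was 598.5 ± 79.4 CPM in the Brn3b WT IPs and 479.7 ± 36.4 CPM in the Rpl22HA IPs, a ratio of 1.25 (exact two-sided permutation p = 0.13). The 10 genes of melanopsin phototransduction had a median of 0.32, with 7 inside 2-fold. Plcb4, the phospholipase C that melanopsin signals through, had 235.0, 177.6, 144.2 and 213.0 CPM in the Brn3b WT IPs, against 166.4 and 140.5 CPM in the Rpl22HA IPs, and the groups overlapped. Tbx20 had 71.8, 78.0, 73.8 and 69.5 CPM in the Brn3b WT IPs, against 57.1 and 61.8 CPM in the Rpl22HA IPs (0.30 ± 0.17). Rpl22, the gene that carries the tag, had 107.4, 80.02, 72.4 and 82.0 CPM in the Brn3b WT IPs, against 102.7 and 107.0 CPM in the Rpl22HA IPs.

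Of 32 voltage-gated channel genes tested none was called, where 0.12% of all genes were, and 23 lay inside 2-fold by interval. Of all genes 66.1% did, and of those with at least 10 CPM 86.0%. Kcna2, the Kv1.2 channel of axons, had 210.6, 167.7, 182.2 and 174.5 CPM in the Brn3b WT IPs, against 120.0 and 97.5 CPM in the Rpl22HA IPs (0.76, adjusted p = 0.13). Of 23 transmitter receptor genes none was called, 13 lay inside 2-fold by interval, a smaller share than over all genes, 19 had a positive fold change and the median was 0.27. The largest among them was Gabra2, a GABA-A receptor subunit, with 15.9, 58.5, 51.0 and 43.9 CPM in the Brn3b WT IPs, against 11.9 and 12.2 CPM in the Rpl22HA IPs (1.82, adjusted p = 0.11), where Brn3b WT replicate 1 lay closest to the Rpl22HA IPs. Of 23 genes of synaptic vesicles and release 22 lay inside 2-fold, with a median of −0.01.

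Genes of translation and metabolism are set beside the genes whose interval lay inside 2-fold, 66.1% of all and 86.0% of those with at least 10 CPM. The share thus depends on level. Of 81 cytosolic ribosomal protein genes tested none was called, where 0.12% of all genes were, and 75 lay inside 2-fold, with a median of −0.08. In 21 of them the groups did not overlap and were lower in the Brn3b WT IPs, and in 7 higher, beside 10.3% and 9.62% of all genes. Of 79 nuclear genes of oxidative phosphorylation 76 lay inside 2-fold (median −0.02), of 37 proteasome genes 36 (median −0.10), and of 17 genes of glycolysis 15 (median −0.22). Hk2, the hexokinase that photoreceptors express, had the lowest fold change of the 17, with 105.9, 103.3, 127.4 and 114.5 CPM in the Brn3b WT IPs, against 202.6 and 175.7 CPM in the Rpl22HA IPs (−0.75, adjusted p = 0.11). The mitochondrial genome was an exception in spread: 4 of 14 genes lay inside 2-fold, none was called, and fold changes ran from −1.07 (mt-Nd6) to 1.01 (mt-Nd3), 2 subunits of the same respiratory complex I. mt-Nd6 lies on the strand opposite to mt-Nd5.

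Nuclear long noncoding RNAs, which are not translated, varied within the second experiment. Their sum was 3323, 4193, 4635 and 1478 CPM in Brn3b WT replicates 1 to 4, against 1303 and 1308 CPM in the Rpl22HA IPs. Malat1, a transcript kept in nuclear speckles, made up most of it, with 2813, 3750, 4060 and 1140 CPM in the Brn3b WT IPs, against 1029 and 941.2 CPM in the Rpl22HA IPs (1.58, adjusted p = 0.14). Brn3b WT replicate 4 lay near the Rpl22HA IPs. Scaled over all 16 libraries Malat1 had 6202 and 5224 CPM in the untagged ctrl IPs and 6301 and 2489 CPM in the ctrl inputs. None of the 7 genes tested was called, where 0.12% of all genes were.

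None of the markers of other retinal cells was called, where 0.12% of all genes were. Bipolar markers summed to 317.8 to 449.0 CPM in the Brn3b WT IPs, against 259.8 and 384.7 CPM in the Rpl22HA IPs, with overlap. Amacrine markers summed to 476.6 to 640.9 CPM in the Brn3b WT IPs, against 407.8 and 444.7 CPM in the Rpl22HA IPs, without overlap (exact two-sided permutation p = 0.133). Müller glia and astrocyte markers summed to 961.0 to 1176 CPM in the Brn3b WT IPs, against 1007 and 1039 CPM in the Rpl22HA IPs. Horizontal cell, microglia (1 of 8 genes tested), pigment epithelium and blood lists overlapped as well. The vascular list had 546.6 ± 61.1 CPM in the Brn3b WT IPs and 935.8 ± 59.6 CPM in the Rpl22HA IPs, nearly all of it from Vtn (vitronectin), which photoreceptors also express. Vtn had 536.7, 524.0, 431.6 and 448.5 CPM in the Brn3b WT IPs, against 937.9 and 844.2 CPM in the Rpl22HA IPs (−0.88, adjusted p = 0.074), and the other 6 vascular genes tested had positive fold changes.

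Sex-linked genes followed the labels of both experiments. Xist, the RNA that silences one X chromosome in females, had 155.4 CPM in Brn3b WT replicate 3, the female, and at most 0.312 CPM in the 3 males, against 17.3 and 24.0 CPM in the pooled Rpl22HA IPs. The Y-linked genes Ddx3y, Uty, Eif2s3y and Kdm5d together had 595, 968, 0 and 1056 counts in Brn3b WT replicates 1 to 4, against 332 and 370 counts in the Rpl22HA IPs. The fold change of Xist over all libraries, 0.94, therefore rests on replicate 3, and without it was −6.28.

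Some genes varied more among the 4 Brn3b WT mice than between the experiments. Among genes with a mean of at least 200 counts, the 10 widest ranges within the Brn3b WT IPs included Xist, its antisense Tsix, Ddx3y and Eif2s3y, which follow sex. Cd59a, a membrane inhibitor of complement, had 200.2, 29.0, 27.1 and 143.4 CPM in the Brn3b WT IPs, against 345.6 and 167.3 CPM in the Rpl22HA IPs. Eef1a2, the elongation factor form of neurons and muscle, had 216.7, 15.4, 72.5 and 226.7 CPM in the Brn3b WT IPs, against 192.6 and 228.0 CPM in the Rpl22HA IPs, so replicates 2 and 3 were below the other libraries. Gm4792 had 37.2, 0.457, 28.2 and 61.5 CPM in the Brn3b WT IPs, against 57.3 and 105.0 CPM in the Rpl22HA IPs. Tuba1c, an alpha-tubulin named after its values were seen, had 222, 183, 362 and 0 counts in Brn3b WT replicates 1 to 4, against 1 and 4 counts in the Rpl22HA IPs, so replicate 4 sided with the first experiment (adjusted p = 0.14).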

How the data were processed

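The libraries were made with Smart-seq3 from HA immunoprecipitates of retinal lysate, sequenced in pairs of 37 bp and mapped on mm10 with the Smart-seq3 pipeline, per the methods. The values are raw counts per Ensembl transcript, which the authors deposited without normalization in 1 table for each experiment. Which annotation release was used is not stated there. Transcripts of one gene share reads, so 1 transcript was read per symbol (highest mean count over the 6 libraries, 47451 symbols). Of 117860 transcripts 116747 (99.1%) matched GENCODE M21, from which lengths and positions came. The 17 transcripts listed under 2 symbols are not independent.

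Genes were filtered with filterByExpr, scaled by TMM and tested with edgeR 4.0.16 (glmQLFit and glmQLFTest, R 4.3.3) with experiment as the only factor and 4 residual degrees of freedom, with Benjamini-Hochberg adjustment over 14186 genes. Intervals are 95%. The procedure was tested on simulated data. Alternatives used RLE factors, no filter, DESeq2 1.42.0, other transcripts, all 16 libraries, a replicate block, GC offsets and each library left out.

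Members and gene lists were chosen with earlier results of these data known, the lists from textbook knowledge of retinal cell types and pathways. Named genes were the 25 most abundant per kb, up to 12 called genes per direction with groups that do not overlap and a mean count of at least 50, up to 4 members of each list by p and 4 by level, 15 chosen genes, 5 sex-linked genes and the 10 with the widest range among the Brn3b WT IPs. Other genes were named after their values were seen, and not every gene that the rule names is reported here. The methods describe biological replicates, the first experiment's labels name pooled mice, and p-values measure the spread between these libraries.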

Additional observations from a re-analysis of the deposited data

Results flagged for a closer look

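Single libraries were looked for that lay far from the other 3 of the Brn3b WT IPs, by Dixon's ratio of the gap to the whole range, in 85 genes and 37 list sums. Chance gives about 1 such library in 20 groups, and 11 genes and 3 lists had one. The genes checked included some picked for a wide range among these same libraries, such as Gm14508, Xist and Tsix. The 11 genes therefore cannot be set against the chance rate, and no excess is concluded from them. Replicate 3, the female, was highest for Xist (ratio 0.999), Tsix (0.997), Chrna6, a nicotinic receptor subunit of ganglion cells (0.84, with 367.6 CPM in replicate 3 and 247.8 to 267.0 CPM in the others), Crybb2 (0.848) and mt-Nd6 (0.85). Replicate 4 was highest for Rbpms, the pan-ganglion cell RNA-binding protein (0.895, with 337.2 CPM, against 201.0 to 215.3 CPM in the others), and for Cryba1 (1.0, from a single count), and lowest for mt-Nd1 (0.964) and Gm14508 (0.893, with 3.47 CPM, against 33.6 to 37.2 CPM). Replicate 1 was lowest for Slc17a6 (0.973) and the sum of Y-linked genes and Xist (0.863), and highest for Pde6g (0.855) and the voltage-gated channels (0.836, with 4322 CPM, against 3434 to 3580 CPM). Replicate 2 was lowest for the proteasome genes (0.887, with 5750 CPM, against 6486 to 6580 CPM).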

How the results depend on the processing

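The count of called genes was the least stable result. Against 3 higher and 14 lower genes, RLE factors gave 4 and 14, no filter on low counts 124 and 144 (26017 genes tested), all transcripts fitted together 2 and 8, all 16 libraries in one fit 2 and 24 (0 of the 3 and 10 of the 14 shared), DESeq2 71 and 87, and GC offsets, chosen after seeing the data, 24 and 42. Leaving out each library gave 0 to 62 higher and 0 to 123 lower genes. The replicate numbers 1 and 2 occur in both experiments but no label says that they pair, and same-numbered libraries deviated together with r = 0.153 and 0.151. With the replicate number as a block 146 genes were higher and 118 lower. Numbers 3 and 4 occur only among the Brn3b WT IPs. In that fit the fold changes thus rest on replicates 1 and 2 of each experiment. Why the counts rose was not tested. Genes inside 2-fold by interval numbered 6559 to 9830 over the alternatives, lowest without Rpl22HA IP 2, and 82 to 90 of the 100 most abundant genes were shared. The cone ratio lay between 0.563 and 0.713 and the rod ratio between 0.563 and 0.638. Spearman's rho was 0.9748 over genes with at least 10 CPM and 0.9819 to 0.9857 with 1 library left out. Over 253 single genes and 3536 values, 3261 kept direction and side of the threshold, 59 lost the call, 102 gained one, 110 moved and 4 reversed: Xist and Tsix at −6.37 and −6.64 with the replicate block, and at −6.28 and −6.34 without Brn3b WT replicate 3, the only female. With 1 library left out Xist lay between −6.28 and 1.36 and Tsix between −6.34 and 1.43. Of the 17 called genes 6 stayed called in at least 12 of 14 alternatives.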
